A study of Mus musculus with 24 samples.

Results

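The comparison set 3 libraries of cKO CD8+ T cells against 3 libraries of WT CD8+ T cells, both activated for 3 days with dexamethasone (Dex), a synthetic glucocorticoid. These 6 of the 24 libraries were chosen by their labels. The series also holds WT libraries of day 9, with neither addition, with 10 nM Dex, with an interleukin named in the labels, or with both. Refits described below as all 24 libraries in 1 fit include these day 9 libraries, those with the interleukin among them. All genes of the deposited table were considered, and 11967 of its 23366 genes had enough counts to be tested. The mice were of the C57BL/6 strain, and their ages are not given. WT cells were E8i-Cre-Nr3c1fl/fl, so both alleles of Nr3c1, the glucocorticoid receptor gene, carried loxP sites and no Cre was present. The cKO cells were E8i-Cre+Nr3c1fl/fl, in which a Cre driven by an enhancer of the Cd8a gene acts in CD8 lineage cells. Naive cells had been sorted from spleen and lymph nodes as CD8+CD62LhiCD44- and were cultured on antibodies to CD3 and CD28, each at 1 µg/ml, with 10 nM Dex. The Ctrl cultures used for comparison had the same antibodies and genotypes and no Dex, again with 3 libraries per genotype. Each library came from 1000 cells. The labels name neither the deleted exon nor the source of the replicates, so a p-value here measures only how far these samples spread, which may be technical.

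The glucocorticoid receptor is a transcription factor held in the cytoplasm by chaperones until a steroid binds it. It then enters the nucleus, binds DNA at palindromic response elements and switches on genes such as Tsc22d3, Fkbp5 and Per1, and it represses many cytokine genes. In T cells glucocorticoids are known for restraining cytokine production and for acting on the expression of inhibitory receptors. The comparison asks which transcripts depend on the receptor in CD8+ T cells that are exposed to the steroid. Levels below are CPM, counts scaled to the size and composition of each library by TMM. Differences are log2 fold changes of cKO minus WT ± SE, from edgeR, with 3 libraries per group. A gene is called higher or lower where its Benjamini-Hochberg adjusted p over all genes tested was under 0.05.

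Nr3c1 was lower in every cKO library, at 22.1, 20.5 and 19.9 CPM in the WT libraries and 5.49, 5.92 and 8.43 CPM in the cKO libraries (-1.65 ± 0.15, adjusted p = 1.2e-06). Gene-level counts include whatever part of the gene remains after deletion. Estimated counts summed to between 15200000 and 15800000 in the WT libraries and between 16300000 and 17900000 in the cKO libraries. Rn45s, the ribosomal RNA precursor, took 11.6% to 13.2% of these totals. The 7 CD8 T cell markers summed to 1973 to 2091 CPM in WT and 2332 to 2383 CPM in cKO, and Cd8a, Cd8b1 and Cd3d were higher in cKO. Markers of B cells summed to 15.2 to 18.2 CPM in WT and 21.6 to 21.96 CPM in cKO, with Pax5 and Blk at 0. CD4 T cell markers summed to 19.9 to 24.3 CPM in WT and 25.9 to 28.7 CPM in cKO, of which Trat1 made up a mean of 4.92 and 13.2 CPM. Myeloid and dendritic cell markers summed to 128 to 145 CPM in WT and 126 to 148 CPM in cKO, nearly all of it Cst3, with Lyz2 at 0. NK cell markers stayed at or under 0.555 CPM and erythroid and platelet markers at or under 1.16 CPM. Markers of fibroblasts and epithelium summed to 12.9 to 16.7 CPM in WT and 16.7 to 18.7 CPM in cKO, and Epcam among them was higher in cKO. The part of other cells in the results was not tested. In bulk RNA fewer cells of a type and less RNA per cell cannot be told apart.

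One library stood apart. The cKO Dex replicate 6 differed from replicates 4 and 5 by a chi-square per gene of 14.2 and 10.6, whereas replicates 4 and 5 differed by 4.42 and the WT Dex libraries by 4.33 to 4.83. Without it 1186 genes were called in place of 826, and without any other of these 6 libraries between 484 and 577. The cell cycle and interferon lists show how replicate 6 differed. The cell cycle list's mean log2(CPM + 1) over 38 genes was 7.34, 7.35 and 7.30 in the WT libraries, 7.12 and 7.20 in cKO replicates 4 and 5 and 7.39 in replicate 6. With replicate 6, 0 of the 38 genes were called, and without it 15 were lower in cKO, beside 5 with it and no low-count filter. Over 39 interferon-inducible genes the mean was 6.23, 6.02 and 6.15 in the WT libraries, 5.72 and 5.78 in cKO replicates 4 and 5 and 6.12 in replicate 6. In cKO Ctrl replicates 4, 5 and 6 the cell cycle mean was 7.21, 7.21 and 7.36. The interferon mean there was 5.62, 5.80 and 5.94. The cKO Ctrl replicate 6 differed from replicates 4 and 5 by a chi-square per gene of 8.64 and 7.31. Replicates 4 and 5 differed by 4.97, and the WT Ctrl libraries by 4.43 to 7.77.

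With Dex, 826 genes differed between the genotypes, 6.9% of those tested. Of these, 434 were higher in cKO cells (3.63%) and 392 lower (3.28%). Most differences were small. The median log2 difference was 0.43 among higher genes and -0.55 among lower genes, beside -0.00019 over all genes tested. At least 2-fold differences were seen for 68 higher genes (0.568% of genes tested) and 87 lower genes (0.727%), and at least 4-fold differences for 19 in each direction. The CPM of the groups did not overlap for 427 of the higher and 389 of the lower genes, and did not overlap for 23.4% of all genes tested. For a called gene, a lack of overlap therefore adds little to the call. At the threshold lay Ifrd2 (-0.36 ± 0.11, adjusted p = 0.04996) and Hsh2d (-0.62 ± 0.18, adjusted p = 0.04996), and just outside it Sh2d3c (0.35 ± 0.10, adjusted p = 0.0503) and Skil (-0.28 ± 0.08, adjusted p = 0.0503).

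Glucocorticoid target genes were lower in cKO where called, with 1 exception: of 36 tested members 1 was higher and 14 lower, with a median log2 difference of -0.21. The lower members numbered 9 with unfiltered FPKM in limma and 9 without WT Dex replicate 2. The higher members numbered 2 with no low-count filter, 2 with only these 6 libraries and 3 without cKO Dex replicate 6. Tsc22d3, which encodes the leucine zipper protein GILZ and is a standard readout of receptor activity, stood at 203, 176 and 209.9 CPM in the WT libraries and 67.1, 77.6 and 57.1 CPM in the cKO libraries (-1.55 ± 0.11, adjusted p = 4.2e-08). The groups did not overlap. The value of cKO Dex replicate 6 lay among those of the cKO Ctrl libraries (51.2, 60.8 and 58.8 CPM), and those of replicates 4 and 5 lay above them. Fkbp5, a co-chaperone that limits steroid binding by the receptor, had 44.6, 44.8 and 48.4 CPM in the WT libraries and 23.5, 27.3 and 26.3 CPM in the cKO libraries (-0.84 ± 0.10, adjusted p = 2.6e-05). All 3 cKO values were below all 3 WT values. The metallothioneins Mt1 and Mt2, which bind zinc and copper, were lower too, Mt1 with 105, 100.1 and 107 CPM in the WT libraries and 24.8, 26.7 and 31.1 CPM in the cKO libraries (-1.92 ± 0.13, adjusted p = 4.5e-08) and Mt2 with 16.2, 16.8 and 19.8 CPM in the WT libraries and 5.43, 5.48 and 5.82 CPM in the cKO libraries (-1.66 ± 0.22, adjusted p = 1.2e-04). Also lower were Ctla2a (-1.32 ± 0.14), Il1r2 (-1.30 ± 0.38), Tgm2 (-1.12 ± 0.15), Sgk1 (-0.84 ± 0.20), Pik3ip1 (-0.70 ± 0.12), Rgs2 (-0.68 ± 0.16) and Tiparp (-0.53 ± 0.14). Ctla2a encodes a cathepsin inhibitor, Il1r2 a decoy receptor for interleukin 1 and Sgk1 a serum- and glucocorticoid-regulated kinase.

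Per1, a clock gene with a well-known receptor response, differed little, with 52.3, 54.8 and 54.997 CPM in the WT libraries and 48.2, 44.5 and 40.04 CPM in the cKO libraries (-0.29 ± 0.08, adjusted p = 0.0419). It lost the call in several refits, with adjusted p of 0.0721 with FPKM in limma, 0.0724 with FPKM in limma at a pseudocount of 0.1, 0.0994 with unfiltered FPKM in limma, 0.131 with all 24 libraries in 1 fit, 0.0552 with only these 6 libraries, 0.0866, 0.123 and 0.128 without WT Dex replicates 1, 2 and 3, and 0.108 and 0.116 without cKO Dex replicates 5 and 6. Dusp1, a phosphatase that switches off MAP kinases, was lower (-0.49 ± 0.10, adjusted p = 0.00402). One member went the other way: Lpin1, a phosphatidate phosphatase gene, was higher (0.62 ± 0.11, adjusted p = 0.00194). Among the other 22 tested genes for the receptor's chaperones and steroid-handling enzymes, Hsd11b1 alone was higher and Fkbp5 alone lower. Hsd11b1 makes active glucocorticoid inside cells and had 2.12, 1.26 and 2.36 CPM in the WT libraries and 5.92, 9.15 and 4.88 CPM in the cKO libraries (1.79 ± 0.28, adjusted p = 4.5e-04). Of the 17 tested metallothionein and zinc genes, Mt1, Mt2 and the zinc transporter gene Slc39a1 were lower (17.6% called). Slc39a1 (-0.23 ± 0.06, adjusted p = 0.0269) lost the call without any 1 of the 6 libraries, at adjusted p of 0.0547 with unfiltered FPKM in limma, 0.0502, 0.0641 and 0.120 without WT Dex replicates 1, 2 and 3, and 0.0685, 0.0623 and 0.0514 without cKO Dex replicates 4, 5 and 6.

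The windows before the start sites of 4 lower genes are shown because each holds a 6-base arm of the glucocorticoid response element, AGAACA or its reverse complement TGTTCT, in capitals. They cover 250 bases ending at the start, 5′ to 3′ on the gene's strand, from RefSeq on GRCm38.p6, a later build than the mm9 of the deposited tables.
Atp2b4, chr1:133753748-133753997, minus strand: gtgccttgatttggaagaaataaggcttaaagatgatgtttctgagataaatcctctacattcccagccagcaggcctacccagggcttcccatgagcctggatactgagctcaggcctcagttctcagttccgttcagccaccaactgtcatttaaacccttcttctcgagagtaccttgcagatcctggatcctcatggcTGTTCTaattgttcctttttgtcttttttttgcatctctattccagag
Tsc22d3, chrX:140600523-140600772, minus strand: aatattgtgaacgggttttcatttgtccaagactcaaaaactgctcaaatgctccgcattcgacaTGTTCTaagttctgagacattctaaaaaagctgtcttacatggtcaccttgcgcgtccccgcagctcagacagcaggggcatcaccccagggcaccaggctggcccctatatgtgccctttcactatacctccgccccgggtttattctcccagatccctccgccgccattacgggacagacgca
Pdcd1, chr1:94052554-94052803, minus strand: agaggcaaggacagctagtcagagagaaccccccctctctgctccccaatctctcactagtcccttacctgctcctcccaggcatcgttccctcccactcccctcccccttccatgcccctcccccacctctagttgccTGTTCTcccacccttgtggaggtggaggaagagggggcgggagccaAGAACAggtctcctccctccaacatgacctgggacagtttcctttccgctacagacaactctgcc
Ptpn22, chr3:103860027-103860276, plus strand: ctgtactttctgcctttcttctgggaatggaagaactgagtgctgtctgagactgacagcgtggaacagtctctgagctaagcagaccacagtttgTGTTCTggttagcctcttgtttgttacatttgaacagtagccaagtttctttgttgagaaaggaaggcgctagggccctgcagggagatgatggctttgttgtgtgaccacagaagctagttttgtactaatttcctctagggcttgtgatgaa
Atp2b4 encodes a plasma membrane calcium pump and Ptpn22 a phosphatase that dampens T cell receptor signals. The 4 come from the 20 named genes with such an arm, in order of p. A window of 300 bases around the start was available for 8898 of the genes tested, and 14.8% of these held an arm on either strand. The share was 16.3% among the lower genes and 14.1% among the higher genes. Among genes lower by at least 2-fold it was 13 of 62 (21.0%), and among those higher by at least 2-fold 4 of 45 (8.89%). The whole element, which is AGAACA and TGTTCT in that order with 3 free bases between them, was found with at most 2 mismatches in the windows of 1.16% of genes tested, of 3 of 294 lower genes (1.02%) and of 3 of 313 higher genes (0.958%). Its closest match had 5 mismatches in the windows of Atp2b4, Tsc22d3 and Pdcd1 and 3 in that of Ptpn22. The arms shown stood 48 bases before the start of Atp2b4, 185 before that of Tsc22d3, 111 and 65 before that of Pdcd1 and 154 before that of Ptpn22. A match of letters describes the window and does not show that the receptor binds there.

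Cytokine genes differed in both directions. Ifng, the interferon gamma gene and a main effector cytokine of CD8+ T cells, had 6.91, 11.6 and 1.59 CPM in the WT libraries and 158, 172 and 166 CPM in the cKO libraries. The WT values were all far below the cKO values, which lay between 158 and 172 CPM, a difference of 4.63 ± 0.29, adjusted p = 1.6e-08. In the list as a whole, of 18 tested members 5 were higher and 3 lower, with a median log2 difference of 0.28. Without Dex the same list had 0 higher, 0 lower and a median of -0.18. Lta, the lymphotoxin alpha gene, had 200.1, 174 and 161 CPM in the WT libraries and 349.5, 348 and 337 CPM in the cKO libraries (0.95 ± 0.08, adjusted p = 2.8e-07), with no overlap. Its partner Ltb had 111, 99.1 and 109 CPM in the WT libraries and 196, 195 and 264 CPM in the cKO libraries (1.04 ± 0.12, adjusted p = 3.2e-05). The chemokine gene Xcl1, whose product attracts cross-presenting dendritic cells, had 66.3, 89.8 and 67.9 CPM in the WT libraries and 218, 167 and 167 CPM in the cKO libraries (1.30 ± 0.21, adjusted p = 5.6e-04), and the other 6 tested chemokine genes were not called. The share of chemokine genes called was 14.3%, beside 6.9% of all genes tested.

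Tnf was higher by a smaller margin, with 46.4, 54.1 and 37.9 CPM in the WT libraries and 85.1, 65.1 and 60.7 CPM in the cKO libraries (0.61 ± 0.15, adjusted p = 0.0206). The higher cytokine genes numbered 8 with no filter on low counts, and 3 with all 24 libraries in 1 fit. Tnf lost the call in 5 refits, at adjusted p of 0.123 with unfiltered FPKM in limma, 0.0514 with all 24 libraries in 1 fit, 0.0752 and 0.113 without WT Dex replicates 1 and 3, and 0.132 without cKO Dex replicate 4. Il16 was also higher (0.35 ± 0.07), and its call was lost with all 24 libraries in 1 fit (adjusted p = 0.0906). Il2, the growth factor gene, spread widely within both groups (125, 84.7 and 19.7 CPM in the WT libraries and 83.8, 35.7 and 56.95 CPM in the cKO libraries) and was not called (-0.38 ± 0.39, adjusted p = 0.668).

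The 3 lower cytokine genes were Tgfb3, Ebi3 and Il10. Tgfb3, which encodes transforming growth factor beta 3, had 9.83, 13.7 and 9.74 CPM in the WT libraries and 2.13, 3.05 and 3.05 CPM in the cKO libraries (-2.01 ± 0.25, adjusted p = 3.9e-05). Ebi3, the shared subunit gene of interleukins 27 and 35, was lower in cKO (-0.36 ± 0.10, adjusted p = 0.0446). Il10 rested on few reads, 229 counts over the WT libraries and 36 over the cKO libraries (-2.78 ± 0.67, adjusted p = 0.0157). It lost the call at adjusted p of 0.0628 in DESeq2, 0.0607 and 0.0590 without WT Dex replicates 2 and 3, and 0.0617 without cKO Dex replicate 4. The count of lower cytokine genes was 5 with no low-count filter and 1 without WT Dex replicate 2.

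**Figure D1:**
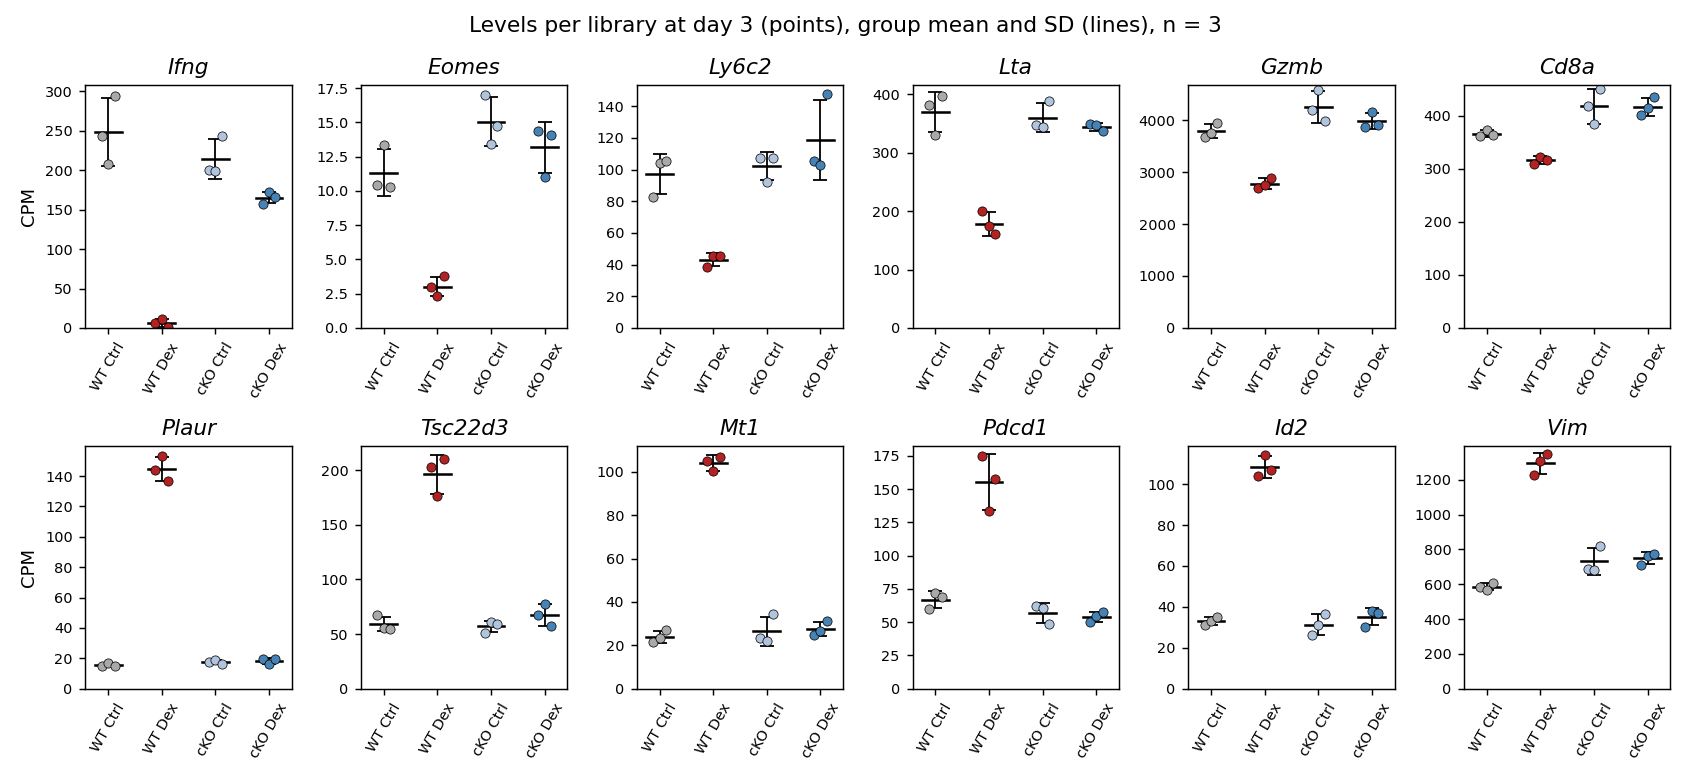
CPM at day 3 for 12 genes on linear axes that start at 0, with 1 point per library and lines for the mean and SD of the 3 libraries of a group. Ifng, Eomes, Ly6c2, Lta, Gzmb and Cd8a were lowest in the WT Dex libraries, and Plaur, Tsc22d3, Mt1, Pdcd1, Id2 and Vim were highest there.

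Genes of the cytotoxic granule moved in both directions: of 21 tested members 6 were higher and 4 lower, with a median log2 difference of 0.08. The higher members numbered 3 with unfiltered FPKM in limma. Gzmb, the granzyme B gene, had 2692, 2745 and 2894 CPM in the WT libraries and 3865, 4158 and 3910.3 CPM in the cKO libraries (0.52 ± 0.05, adjusted p = 2.6e-06), so its cKO values were all above its WT values. Ctsw, a cathepsin of cytotoxic cells, had 35.7, 36.4 and 42.3 CPM in the WT libraries and 66.2, 58.8 and 63.7 CPM in the cKO libraries (0.72 ± 0.08, adjusted p = 1.0e-05). Nkg7, a granule membrane protein gene, Rab27a, which docks granules at the membrane, and Fasl, the death ligand gene, were higher as well (Nkg7 (0.51 ± 0.10), Rab27a (0.44 ± 0.08) and Fasl (0.49 ± 0.13)). Prf1, the perforin gene, was called (0.34 ± 0.08, adjusted p = 0.0192) but not in the refits with adjusted p of 0.0537 with unfiltered FPKM in limma, 0.120 with all 24 libraries in 1 fit, 0.0616 and 0.110 without WT Dex replicates 2 and 3, and 0.0794 and 0.0800 without cKO Dex replicates 4 and 5.

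The lower members included 2 protease inhibitors and a granule proteoglycan. Serpinb9, which protects cytotoxic cells from their own granzyme B, had 736, 703 and 704 CPM in the WT libraries and 409, 439.5 and 429.7 CPM in the cKO libraries (-0.75 ± 0.06, adjusted p = 1.0e-07). Srgn, the serglycin gene, had 509, 590.4 and 512 CPM in the WT libraries and 399.6, 373 and 284 CPM in the cKO libraries (-0.61 ± 0.11, adjusted p = 0.00248). Serpinb6b (-0.39 ± 0.11, adjusted p = 0.0312) lost the call at adjusted p of 0.0598 in DESeq2, 0.0512 with FPKM in limma, 0.0532 with FPKM in limma at a pseudocount of 0.1, 0.168 with unfiltered FPKM in limma, 0.0835 with all 24 libraries in 1 fit, 0.0608, 0.132 and 0.0672 without WT Dex replicates 1, 2 and 3, and 0.0655 and 0.0722 without cKO Dex replicates 5 and 6. Gzma, the granzyme A gene, was low in all libraries and lower still in cKO, with 391 counts over the WT libraries and 22 over the cKO libraries (-4.22 ± 0.57, adjusted p = 1.2e-04). Granzyme A and B transcripts therefore differed in opposite directions.

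Among genes of inhibitory receptors, of 19 tested members 1 was higher and 3 lower, with a median log2 difference of 0.01. The share called was 21.1%, beside 6.9% of all genes tested. The lower members numbered 5 with no low-count filter. Pdcd1, which encodes PD-1, had 175, 133 and 157 CPM in the WT libraries and 49.9, 54.3 and 57.3 CPM in the cKO libraries (-1.53 ± 0.11, adjusted p = 4.5e-08). Ctla4, whose product competes with CD28 for its ligands, had 433, 487 and 471 CPM in the WT libraries and 202, 211 and 231 CPM in the cKO libraries (-1.11 ± 0.07, adjusted p = 7.7e-09). In both genes every cKO value was below every WT value. Lag3 had 275, 307 and 266 CPM in the WT libraries and 352, 328 and 267 CPM in the cKO libraries (0.16 ± 0.10, adjusted p = 0.439) and Tigit 88.6, 105 and 90.5 CPM in the WT libraries and 88.1, 80.5 and 71.5 CPM in the cKO libraries (-0.24 ± 0.10, adjusted p = 0.172), and neither was called. Havcr2, the TIM-3 gene, had 10 counts over the WT libraries and 20 over the cKO libraries, too few to be tested. Cd200, a ligand of an inhibitory myeloid receptor, was higher (0.41 ± 0.07, adjusted p = 0.00174) but lost the call with all 24 libraries in 1 fit (adjusted p = 0.156). Klrc1, the NKG2A gene, was lower (-0.74 ± 0.22, adjusted p = 0.0495), and its adjusted p was 0.132 with unfiltered FPKM in limma, 0.136, 0.141 and 0.0909 without WT Dex replicates 1, 2 and 3, and 0.197 and 0.0945 without cKO Dex replicates 5 and 6.

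Costimulatory receptors and ligands were called in both directions: of 23 tested members 4 were higher and 6 lower, with a median log2 difference of -0.04. Icos, the inducible costimulator gene, had 269, 293 and 293 CPM in the WT libraries and 141, 137 and 164 CPM in the cKO libraries (-0.95 ± 0.10, adjusted p = 8.8e-06). Lower too were Tnfrsf25 (-1.09 ± 0.17), Cd80 (-0.51 ± 0.14), Slamf1 (-0.43 ± 0.06), Tnfrsf4 (-0.33 ± 0.05) and Cd226 (-0.31 ± 0.07), where Tnfrsf25 encodes death receptor 3 and Tnfrsf4 encodes OX40. Higher in cKO were Cd70 (0.80 ± 0.14), Tnfrsf9 (0.37 ± 0.07) and Cd27 (0.37 ± 0.06). Cd70 and Cd27 encode a ligand and its receptor, and Tnfrsf9 encodes 4-1BB.

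Among transcription factors of effector and dysfunctional T cells, of 36 tested members 4 were higher and 5 lower, with a median log2 difference of 0.08. Eomes, which drives effector and memory programmes in CD8+ T cells, had 2.99, 2.33 and 3.76 CPM in the WT libraries and 14.4, 11.02 and 14.1 CPM in the cKO libraries (2.12 ± 0.19, adjusted p = 7.7e-07). Id2, an inhibitor of E proteins, differed the other way with 104, 114 and 107 CPM in the WT libraries and 30.4, 38.05 and 37.2 CPM in the cKO libraries (-1.62 ± 0.11, adjusted p = 2.6e-08). Neither gene's groups overlapped. Tbx21, the T-bet gene, had 43.6, 43.8 and 42.1 CPM in the WT libraries and 40.6, 46.3 and 47.7 CPM in the cKO libraries and was not called (0.06 ± 0.13, adjusted p = 0.877). Tox, Runx2 and Irf8 were higher (Tox (0.39 ± 0.09), Runx2 (0.65 ± 0.15) and Irf8 (0.35 ± 0.09)). Hif1a, the oxygen-sensing factor gene, was lower with 642, 661 and 651 CPM in the WT libraries and 358, 384 and 417 CPM in the cKO libraries (-0.75 ± 0.06, adjusted p = 1.0e-07). Zeb1, a zinc finger repressor gene, was lower by 0.58 ± 0.09 on the log2 scale. The count of higher members was 7 with no low-count filter, 2 with unfiltered FPKM in limma, 2 without WT Dex replicates 2 or 3, and 1 without cKO Dex replicate 5.

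AP-1 factors, which carry signals of the T cell receptor, and the MAP kinase feedback genes were mostly lower where they were called: of 26 tested members 2 were higher and 8 lower, with a median log2 difference of -0.11. Fos had 26.5, 29.5 and 21.5 CPM in the WT libraries and 11.1, 10.8 and 11.4 CPM in the cKO libraries (-1.22 ± 0.17, adjusted p = 1.2e-04). Fosl2 had 41.4, 43.7 and 45.6 CPM in the WT libraries and 25.7, 22.98 and 26.95 CPM in the cKO libraries (-0.79 ± 0.10, adjusted p = 4.6e-05). The other lower members were Jund (-0.90 ± 0.24), Batf3 (-0.62 ± 0.11), Atf3 (-0.59 ± 0.11), Batf (-0.54 ± 0.08) and Junb (-0.15 ± 0.04), and the higher ones Dusp14 (0.54 ± 0.12) and Jun (0.52 ± 0.11). Junb was also lower in cKO without Dex (-0.20 ± 0.04, adjusted p = 0.0197). Among subunits and inhibitors of NF-kB, of 25 tested members 1 was higher and 2 lower, with a median log2 difference of 0.02. The share called was 12%, beside 6.9% of all genes tested. Of the called ones Birc2 and Tnip2 lost the call without any 1 of the 6 libraries, with adjusted p of 0.0629 with library totals only, 0.0647 with unfiltered FPKM in limma, 0.0849, 0.173 and 0.0792 without WT Dex replicates 1, 2 and 3, and 0.111, 0.0683 and 0.0774 without cKO Dex replicates 4, 5 and 6 for Birc2 and 0.106 with unfiltered FPKM in limma, 0.137, 0.0789 and 0.0766 without WT Dex replicates 1, 2 and 3, and 0.123, 0.0530 and 0.0652 without cKO Dex replicates 4, 5 and 6 for Tnip2. Nfkbiz (-0.55 ± 0.10, adjusted p = 0.00249) lost it with all 24 libraries in 1 fit (0.122).

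Genes of naive and memory cells were called in both directions, as of 34 tested members 8 were higher and 9 lower, with a median log2 difference of 0.07. The lower members numbered 5 with all 24 libraries in 1 fit. Ly6c2, a surface marker of memory and effector CD8+ T cells, had 38.2, 45.7 and 45.5 CPM in the WT libraries and 105, 103 and 148 CPM in the cKO libraries (1.46 ± 0.13, adjusted p = 7.4e-07). Its close copy Ly6c1 was higher by 1.66 ± 0.38, and reads may be shared between the pair. Dapl1 had 25.8, 25.1 and 25.02 CPM in the WT libraries and 55.2, 51.0003 and 39.9 CPM in the cKO libraries (0.94 ± 0.13, adjusted p = 1.1e-04). Tcf7, the gene of the stem-like and memory factor TCF-1, had 59.8, 61.8 and 54.2 CPM in the WT libraries and 82.2, 75.2 and 76.7 CPM in the cKO libraries (0.41 ± 0.07, adjusted p = 9.7e-04), with an adjusted p of 0.117 with all 24 libraries in 1 fit. Il7r, the receptor gene for the survival cytokine interleukin 7, was lower with 138, 149 and 148 CPM in the WT libraries and 102, 99.6 and 89.9 CPM in the cKO libraries (-0.58 ± 0.08, adjusted p = 1.2e-04). Ccr7, which guides cells to lymph nodes, was abundant and lower, with 2417, 2146 and 2404 CPM in the WT libraries and 1545, 1537 and 1344 CPM in the cKO libraries (-0.65 ± 0.07, adjusted p = 1.8e-05). Other lower members were Pik3ip1 (-0.70 ± 0.12), Igfbp4 (-0.61 ± 0.11), Gimap4 (-0.36 ± 0.06), Satb1 (-0.25 ± 0.06) and Lef1 (-0.20 ± 0.06). Bcl2, a survival gene on this list, was lower too (-0.29 ± 0.06, adjusted p = 0.00446, and 0.0604 with all 24 libraries in 1 fit).

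Genes of the T cell receptor complex and its proximal signalling were mostly higher where called: of 33 tested members 13 were higher and 2 lower, with a median log2 difference of 0.19. Without Dex the list had 2 higher, 2 lower and a median of 0.08. Trat1, an adaptor that stabilises the receptor, had 2.99, 5.98 and 5.79 CPM in the WT libraries and 15.003, 11.6 and 13.03 CPM in the cKO libraries (1.43 ± 0.20, adjusted p = 1.7e-04). Cd8a, which encodes a chain of the coreceptor, had 309.9, 323 and 317 CPM in the WT libraries and 402, 415 and 435 CPM in the cKO libraries (0.40 ± 0.05, adjusted p = 1.2e-04). Lat, the central scaffold of receptor signalling, had 186, 195 and 189 CPM in the WT libraries and 264, 240.5 and 262 CPM in the cKO libraries (0.43 ± 0.05, adjusted p = 6.2e-05). All 3 genes separated the groups completely. Other higher members were Rasgrp1 (0.57 ± 0.09), Sla2 (0.51 ± 0.07), Csk (0.33 ± 0.06), Cd247 (0.31 ± 0.06), Cd8b1 (0.28 ± 0.05), Dgka (0.25 ± 0.06) and Cd3d (0.21 ± 0.06). Cd247 encodes the zeta chain. Lcp2, the SLP-76 gene, was called (0.23 ± 0.06, adjusted p = 0.0232) with an adjusted p of 0.0667 with unfiltered FPKM in limma, 0.0889 with all 24 libraries in 1 fit, 0.122 and 0.0832 without WT Dex replicates 1 and 3, and 0.148 without cKO Dex replicate 4. The lower pair was Sla (-0.55 ± 0.08, adjusted p = 1.9e-04), which promotes receptor turnover, and Ptpn22 with 306, 319 and 331 CPM in the WT libraries and 217, 224 and 219 CPM in the cKO libraries (-0.53 ± 0.05, adjusted p = 4.3e-06).

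**Figure D2:**
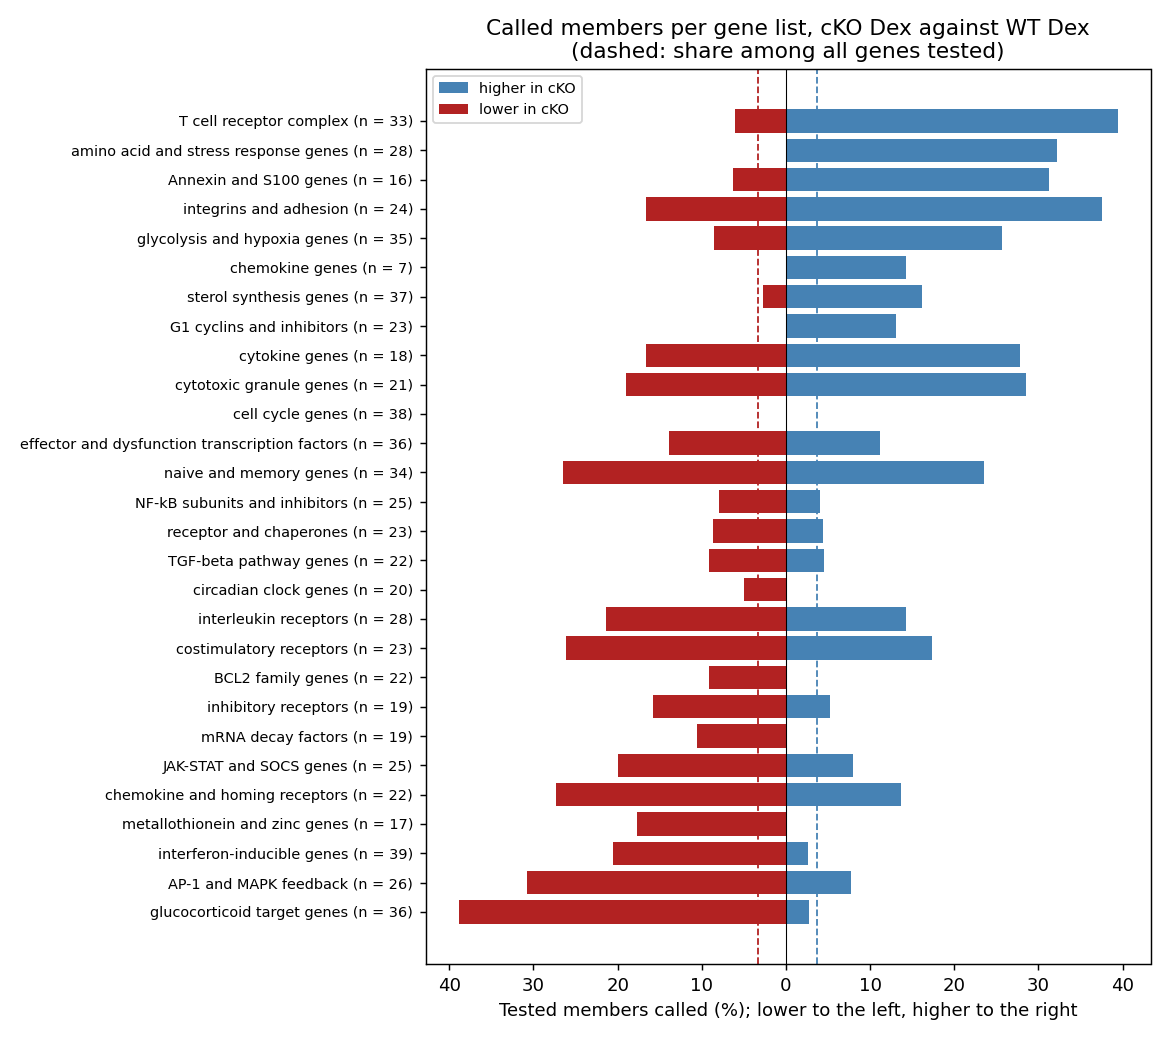
Percent of tested members that were called in each of 28 gene lists, to the right where higher in cKO Dex than in WT Dex and to the left where lower; n is the number of members tested and the dashed lines give the share among all genes tested (3.63% and 3.28%). Glucocorticoid target genes lie mostly to the left (14 of 36 lower) and the T cell receptor complex mostly to the right (13 of 33 higher).

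Adhesion genes were called in both directions: of 24 tested members 9 were higher and 4 lower, with a median log2 difference of 0.18. The count of higher members was 4 without cKO Dex replicate 4, and that of lower members 2 with unfiltered FPKM in limma. The genes with the most negative differences of the list were Plaur and Lrp1. Plaur, the urokinase receptor gene, had 144, 153 and 137 CPM in the WT libraries and 19.7, 16.2 and 19.5 CPM in the cKO libraries (-2.97 ± 0.09, adjusted p = 9.7e-13), and the lowest WT value was several times the highest cKO value. Lrp1, an endocytic receptor gene, had 35.5, 30.5 and 39.2 CPM in the WT libraries and 4.94, 5.60 and 7.71 CPM in the cKO libraries (-2.52 ± 0.17, adjusted p = 2.6e-08). The integrin chains Itgav and Itgb1 were lower (Itgav (-0.73 ± 0.16) and Itgb1 (-0.38 ± 0.11)). Itga4 and Itgb2, also integrin chains, and Cd44 were higher (Itga4 (0.48 ± 0.07), Itgb2 (0.29 ± 0.06) and Cd44 (0.30 ± 0.06)). Higher as well were Lgals3 (1.15 ± 0.20), Cd9 (0.49 ± 0.11), Tspan32 (0.31 ± 0.09), Lgals1 (0.27 ± 0.05), Cd82 (0.27 ± 0.06) and Cd47 (0.20 ± 0.05). Lgals3 and Lgals1 encode galectins.

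Annexin and S100 genes included Anxa2 (0.43 ± 0.05, adjusted p = 3.2e-05), which was also higher without Dex (0.31 ± 0.05, adjusted p = 0.00539). In that list of 16 tested members 5 were higher and 1 lower, with a median log2 difference of 0.15 (without Dex 3 higher, 0 lower and a median of 0.22). The count of higher members was 3 without WT Dex replicate 1 and 3 without cKO Dex replicate 5. Vim, the intermediate filament gene vimentin, was the lower member with 1227, 1305 and 1349 CPM in the WT libraries and 710.3, 763 and 773 CPM in the cKO libraries (-0.79 ± 0.06, adjusted p = 2.4e-07).

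Chemokine and homing receptors were lower in 6 cases and higher in 3: of 22 tested members 3 were higher and 6 lower, with a median log2 difference of -0.10. Ramp3, which pairs with the calcitonin-like receptor to bind adrenomedullin, had 158, 163 and 166 CPM in the WT libraries and 21.7, 31.8 and 13.9 CPM in the cKO libraries (-2.86 ± 0.24, adjusted p = 3.5e-07). Gpr183, a receptor for oxysterols that positions lymphocytes, had 62.4, 58.1 and 64.99 CPM in the WT libraries and 23.97, 24.7 and 24.8 CPM in the cKO libraries (-1.34 ± 0.11, adjusted p = 2.5e-07). Also lower were Ccr6 (-2.30 ± 0.38), Ccr8 (-1.25 ± 0.28) and Cd69 (-0.52 ± 0.07) and, as above, Ccr7. Cxcr5, which guides cells to follicles, was higher, with 3.80, 5.85 and 3.88 CPM in the WT libraries and 13.4, 11.2 and 9.48 CPM in the cKO libraries (1.33 ± 0.19, adjusted p = 2.4e-04). Selplg, the P-selectin ligand gene, was higher by 0.20 ± 0.05.

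Cytokine receptors divided by family member: of 28 tested members 4 were higher and 6 lower, with a median log2 difference of -0.08. Lower were Il6ra (-1.49 ± 0.38), Il1r2 (-1.30 ± 0.38), Il18r1 (-0.84 ± 0.11), Il7r (-0.58 ± 0.08), Il12rb2 (-0.40 ± 0.06) and Il2rb (-0.39 ± 0.08). Il18r1 and Il12rb2 encode receptor chains for interleukins 18 and 12. Il21r, with 216, 199.9 and 211 CPM in the WT libraries and 337, 327 and 286 CPM in the cKO libraries (0.60 ± 0.07, adjusted p = 1.8e-05), was higher, as were Ifnar1 (0.39 ± 0.06), Ifnar2 (0.36 ± 0.09) and Il10rb (0.27 ± 0.07). The count of higher members was 2 without WT Dex replicate 3 and 2 without cKO Dex replicates 4 or 5. In the JAK-STAT pathway the feedback inhibitor genes Socs3 and Socs2 were lower, Socs3 with 110.5, 93.3 and 99.4 CPM in the WT libraries and 56.6, 60.7 and 75.8 CPM in the cKO libraries (-0.65 ± 0.10, adjusted p = 2.9e-04) and Socs2 with 106, 91.1 and 109 CPM in the WT libraries and 58.7, 50.5 and 76.5 CPM in the cKO libraries (-0.72 ± 0.14, adjusted p = 0.00410). Over that list of 25 tested members 2 were higher and 5 lower, with a median log2 difference of 0.09, and the count of lower members was 2 with unfiltered FPKM in limma, 3 without WT Dex replicate 2, and 3 without cKO Dex replicate 5. Socs2 lost the call at adjusted p of 0.0515 with unfiltered FPKM in limma. Socs1 was also lower (-0.47 ± 0.12), with refits that ended its call given below.

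Interferon-inducible genes were lower rather than higher where called, although Ifng itself was higher: of 39 tested members 1 was higher and 8 lower, with a median log2 difference of -0.18. The count of lower members was 13 with no low-count filter, 5 with unfiltered FPKM in limma, 5 with all 24 libraries in 1 fit, 5 without WT Dex replicate 1, and 4 and 16 without cKO Dex replicates 5 and 6. Ifit3, which encodes an antiviral protein that binds RNA, had 38.03, 21.5 and 29.9 CPM in the WT libraries and 7.44, 5.36 and 18.1 CPM in the cKO libraries (-1.52 ± 0.31, adjusted p = 0.00443), and cKO replicate 6 was the highest of the cKO values. Isg20, an exonuclease gene, had 37.3, 34.9 and 34.1 CPM in the WT libraries and 15.003, 17.1 and 23.8 CPM in the cKO libraries (-0.92 ± 0.15, adjusted p = 6.2e-04), and its adjusted p was 0.0551 with all 24 libraries in 1 fit. The guanylate-binding protein genes Gbp7, Gbp5 and Gbp2 were lower (Gbp7 (-0.78 ± 0.17), Gbp5 (-0.72 ± 0.14) and Gbp2 (-0.62 ± 0.15)). Bst2, the tetherin gene, was lower with Dex and without (-0.34 ± 0.06 and -0.43 ± 0.06). Psmb8, an immunoproteasome subunit gene, was the higher member (0.20 ± 0.04, adjusted p = 0.00468). Without Dex the list had 1 higher, 3 lower and a median of -0.11.

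In sterol synthesis of 37 tested members 6 were higher and 1 lower, with a median log2 difference of 0.10 (without Dex 2 higher, 0 lower and a median of 0.08). With Dex the share called was 18.9%, beside 6.9% of all genes tested. Hmgcs1, an early enzyme of the pathway, had 255, 243 and 279.6 CPM in the WT libraries and 329, 349.7 and 348 CPM in the cKO libraries (0.40 ± 0.08, adjusted p = 0.00278). Higher as well were Dhcr7 (0.48 ± 0.09), Mvd (0.36 ± 0.07), Fdps (0.35 ± 0.05) and Fdft1 (0.34 ± 0.06). Elovl6, which lengthens fatty acids, was lower (-0.67 ± 0.09, adjusted p = 1.2e-04).

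Of glycolysis and hypoxia genes, of 35 tested members 9 were higher and 3 lower, with a median log2 difference of 0.00 (without Dex 4 higher, 0 lower and a median of 0.13). Slc2a3, the glucose transporter gene GLUT3, had 142, 188 and 167 CPM in the WT libraries and 307, 329.9 and 267 CPM in the cKO libraries (0.86 ± 0.09, adjusted p = 1.1e-05). The 3 lower members were Ndrg1 (-0.83 ± 0.11), Hif1a (-0.75 ± 0.06) and Hk2 (-0.41 ± 0.10), and Hk2 encodes a hexokinase. The count of higher members was 4 with unfiltered FPKM in limma, 2 with all 24 libraries in 1 fit, 3 without WT Dex replicate 1, and 3 without cKO Dex replicate 5. Gapdh (0.15 ± 0.04, adjusted p = 0.0167) and Pgk1 (0.17 ± 0.04, adjusted p = 0.0227) were called and lost the call in several refits, at adjusted p of 0.184 with unfiltered FPKM in limma, 0.378 with all 24 libraries in 1 fit, 0.0860 and 0.0544 without WT Dex replicates 1 and 2, and 0.0732 without cKO Dex replicate 5 for Gapdh and of 0.0897 with unfiltered FPKM in limma, 0.144 with all 24 libraries in 1 fit, 0.128 and 0.0686 without WT Dex replicates 1 and 2, and 0.120 without cKO Dex replicate 5 for Pgk1.

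Amino acid and stress response genes were higher where called, as of 28 tested members 9 were higher and 0 lower, with a median log2 difference of 0.15. The count was 4 with unfiltered FPKM in limma, 1 with all 24 libraries in 1 fit, 2 and 3 without WT Dex replicates 1 and 3, and 5 and 2 without cKO Dex replicates 4 and 5. Without Dex the list had 0 higher, 4 lower and a median of -0.16. Phgdh, the first enzyme of serine synthesis, had 996, 999.9 and 1021 CPM in the WT libraries and 1260.3, 1209 and 1308 CPM in the cKO libraries (0.32 ± 0.04, adjusted p = 3.4e-05) and kept its call in all alternatives run. Trib3, a pseudokinase gene of the stress response, had 85.6, 88.7 and 82.2 CPM in the WT libraries and 103, 107 and 125 CPM in the cKO libraries (0.38 ± 0.07, adjusted p = 0.00336) and lost the call with all 24 libraries in 1 fit (0.0751). The cyclin gene Ccnd3 was higher (0.62 ± 0.05, adjusted p = 3.9e-07), as was the cyclin-dependent kinase inhibitor gene Cdkn1a (0.48 ± 0.07, adjusted p = 1.7e-04). Bcl2l11, the gene of the pro-apoptotic protein BIM, was lower like Bcl2 (-0.68 ± 0.14, adjusted p = 0.00579), with an adjusted p of 0.152 with all 24 libraries in 1 fit. The remaining 20 tested genes of the BCL2 family were not called. The share called in that family was 9.09%, beside 6.9% of all genes tested.

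Among 19 tested mRNA decay factors, Zfp36l2 and Zfp36l1 were lower, Zfp36l2 with 27.3, 24.9 and 25.4 CPM in the WT libraries and 8.11, 9.22 and 8.65 CPM in the cKO libraries (-1.58 ± 0.12, adjusted p = 1.0e-07) and Zfp36l1 with 46.4, 47.5 and 49.5 CPM in the WT libraries and 36.9, 34.8 and 34.9 CPM in the cKO libraries (-0.43 ± 0.08, adjusted p = 0.00249). These 2 proteins destabilise transcripts with AU-rich elements. The share of decay factors called was 10.5%, beside 6.9% of all genes tested. Among 22 TGF-beta pathway genes Tgfb3 and Furin were lower and Lrrc32 higher (13.6% called, beside 6.9% of all genes tested). Furin, a protease that cleaves the TGF-beta precursor, had 126, 149 and 119 CPM in the WT libraries and 87.9, 80.7 and 56.8 CPM in the cKO libraries (-0.81 ± 0.14, adjusted p = 9.9e-04). Lrrc32, a carrier of latent TGF-beta, was called (0.39 ± 0.11, adjusted p = 0.0367) but lost the call at adjusted p of 0.0605 with library totals only, 0.0620 with FPKM in limma, 0.0610 with FPKM in limma at a pseudocount of 0.1, 0.128 with unfiltered FPKM in limma, 0.469 with all 24 libraries in 1 fit, 0.0693 with only these 6 libraries, 0.111, 0.133 and 0.0763 without WT Dex replicates 1, 2 and 3, and 0.137 without cKO Dex replicate 6. Of 20 clock genes Per1 was the one called (5%, beside 6.9% of all genes tested).

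Several of the genes with the largest differences belong to none of these lists. Irgc1, an immunity-related GTPase gene, had 9.58, 10.4 and 10.9 CPM in the WT libraries and 1.04, 1.43 and 1.83 CPM in the cKO libraries (-2.83 ± 0.28, adjusted p = 3.1e-06). Neb, the gene of the muscle protein nebulin, had 92.4, 95.4 and 108 CPM in the WT libraries and 25.1, 27.3 and 28.5 CPM in the cKO libraries (-1.87 ± 0.10, adjusted p = 1.3e-09). Atp2b4 had 31.9, 33.98 and 35.5 CPM in the WT libraries and 7.01, 8.72 and 10.1 CPM in the cKO libraries (-1.97 ± 0.13, adjusted p = 3.4e-08). Every cKO value of these genes was below every WT value, which the rule that named them required. Lower too were Napsa (-2.46 ± 0.33), Fcrl1 (-1.999 ± 0.23), Gm13546 (-1.81 ± 0.17), Adam9 (-1.75 ± 0.11) and AI480653 (-1.65 ± 0.12). Napsa encodes an aspartic protease and Adam9 a membrane metalloprotease. Serpina3f (-1.89 ± 0.46, adjusted p = 0.0173) lost the call at adjusted p of 0.0550 in DESeq2, 0.0821 with unfiltered FPKM in limma, 0.0879 with all 24 libraries in 1 fit, 0.0755 without WT Dex replicate 3, and 0.0871 and 0.0853 without cKO Dex replicates 4 and 5.

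On the higher side, Fbln2, the gene of the matrix protein fibulin 2, had 2.30, 3.32 and 3.06 CPM in the WT libraries and 15.8, 14.3 and 20.1 CPM in the cKO libraries (2.53 ± 0.21, adjusted p = 3.0e-07). Igsf3 had 3.61, 3.52 and 2.42 CPM in the WT libraries and 9.82, 11.4 and 12.3 CPM in the cKO libraries (1.81 ± 0.18, adjusted p = 2.6e-06). Slc14a1, a urea transporter gene, had 4.54, 5.32 and 4.26 CPM in the WT libraries and 11.5, 12.8 and 20.2 CPM in the cKO libraries (1.66 ± 0.30, adjusted p = 0.00166). All 3 were at low levels in WT cells with Dex. Over the WT Ctrl libraries Fbln2, Igsf3 and Slc14a1 had 609, 378 and 608 counts, beside 135, 149 and 220 over the WT Dex libraries. Also higher were Dapk2 (1.42 ± 0.17), Gprin3 (1.24 ± 0.13) and Bzrap1 (1.12 ± 0.13). Pld4 (1.18 ± 0.28, adjusted p = 0.0159) lost the call at adjusted p of 0.112 with unfiltered FPKM in limma, 0.0509 with all 24 libraries in 1 fit, 0.0829 and 0.0755 without WT Dex replicates 2 and 3, and 0.0605 without cKO Dex replicate 6. Among called genes with the highest CPM, Actb, the beta actin gene, had 4663, 4566 and 4765 CPM in the WT libraries and 5279, 5413 and 6125 CPM in the cKO libraries (0.27 ± 0.05, adjusted p = 0.00415), a modest difference (adjusted p = 0.0590 with unfiltered FPKM in limma). The histone gene H2afz was lower (-0.33 ± 0.06, adjusted p = 9.9e-04), as were Cytip (-0.40 ± 0.05, adjusted p = 4.9e-05) and Sdf4 (-0.46 ± 0.08, adjusted p = 0.00125).

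Most of these genes were not called between the genotypes in cultures without Dex, which used other libraries. There 283 genes were called (2.36% of those tested), 165 higher (1.38%) and 118 lower (0.986%). With library totals only, 140 were higher and 257 lower, a different split. Of the 434 genes higher with Dex, 42 were also higher and 4 lower without it, and their median log2 difference without Dex was 0.08. Of the 392 genes lower with Dex, 17 were also lower and 4 higher, with a median of -0.00690. Ifng had 243, 208 and 294 CPM in the WT Ctrl libraries and 200.5, 199 and 243 CPM in the cKO Ctrl libraries (-0.21 ± 0.21, adjusted p = 0.669). Plaur had 14.9999, 16.9997 and 15.2 CPM and 17.4, 18.98 and 15.98 CPM (0.15 ± 0.10, adjusted p = 0.489). These groups overlapped for both genes. The count without Dex was 74, 63 and 364 without WT Ctrl replicates 1, 2 and 3. It was 88, 177 and 89 without cKO Ctrl replicates 4, 5 and 6, and 513 without cKO Dex replicate 6. The genes called in both cultures in 1 direction numbered 23 to 135 over all alternatives.

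The genotype contrast itself was tested for a difference between the cultures. It differed for 353 genes (2.95% of those tested), 165 with a higher value with Dex (1.38%) and 188 with a lower one (1.57%). Of the genes called with Dex, 112 of the 434 higher and 150 of the 392 lower passed this test. The other called genes are not shown to depend on Dex. Genes called in both cultures in 1 direction numbered 59, Nr3c1 among them. Ccnd3, Cd69, Dapk2, Fdps, Gapdh, Hsh2d, Il10rb, Lgals1, Mvd, Selplg and Sla, named above with Dex, are among them too. Mid1, a microtubule-associated ubiquitin ligase gene, was lower in cKO with 85.8, 78.6 and 77.9 CPM in the WT libraries and 36.96, 37.1 and 42.4 CPM in the cKO libraries with Dex, and its difference was -0.89 ± 0.08, adjusted p = 8.9e-06 without Dex. Rbm45 (1.05 ± 0.14 with and 1.61 ± 0.15 without Dex), Podnl1 (2.50 ± 0.21 and 3.26 ± 0.23), H2-Q9 (0.61 ± 0.05 and 0.62 ± 0.05), H2-Q7 (0.91 ± 0.09 and 0.72 ± 0.09) and Nomo1 (-0.69 ± 0.10 and -0.88 ± 0.10) had the same direction in both.

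A total of 8 genes were called in opposite directions in the cultures. Vim was lower in cKO with Dex (-0.79 ± 0.06, adjusted p = 2.4e-07) and higher without (0.32 ± 0.06, adjusted p = 0.0150). Gimap3 (-0.32 ± 0.06 with and 0.24 ± 0.06 without), Socs1 (-0.47 ± 0.12 and 0.50 ± 0.12) and Csgalnact1 (-1.41 ± 0.36 and 1.98 ± 0.41) shared that pattern. Trib3 was higher with Dex (0.38 ± 0.07) and lower without (-0.35 ± 0.07, adjusted p = 0.0208), as were Slc7a3 (0.41 ± 0.09 and -0.42 ± 0.09), Dgat2 (0.61 ± 0.14 and -0.54 ± 0.14) and Lcp2 (0.23 ± 0.06 and -0.24 ± 0.06). This pattern depended on single Ctrl libraries. In edgeR the count of such genes was 1, 0, 2 and 1 without WT Ctrl replicate 1, WT Ctrl replicate 2, cKO Ctrl replicate 4 and cKO Ctrl replicate 6, and none of the 8 was among them without WT Ctrl replicate 1 or 2 or cKO Ctrl replicate 6, Vim and Gimap3 included. The count rose to 10 and 12 without WT Ctrl replicate 3 and cKO Ctrl replicate 5. It was 2, 6 and 3 without WT Dex replicates 1, 2 and 3, and 9, 2 and 21 without cKO Dex replicates 4, 5 and 6. It was 66 with no low-count filter, 31 in DESeq2, 15 with library totals only, 5 with FPKM in limma at a pseudocount of 0.1, and 2 both with unfiltered FPKM in limma and with all 24 libraries in 1 fit. Of the 8, Vim and Gimap3 kept the call with Dex in all alternatives run. The calls with Dex were lost at adjusted p of 0.116 with unfiltered FPKM in limma, 0.0772 with all 24 libraries in 1 fit, 0.0752, 0.0615 and 0.0566 without WT Dex replicates 1, 2 and 3, and 0.0827 without cKO Dex replicate 5 for Socs1, of 0.0623 with unfiltered FPKM in limma, 0.202 with all 24 libraries in 1 fit, 0.0598 and 0.0572 without WT Dex replicates 1 and 3, and 0.0535 and 0.0555 without cKO Dex replicates 4 and 5 for Slc7a3, of 0.0768 without WT Dex replicate 2 for Dgat2 and of 0.0601, 0.0607 and 0.0924 without WT Dex replicates 1, 2 and 3 and 0.111 and 0.0827 without cKO Dex replicates 4 and 5 for Csgalnact1.

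**Figure D3:**
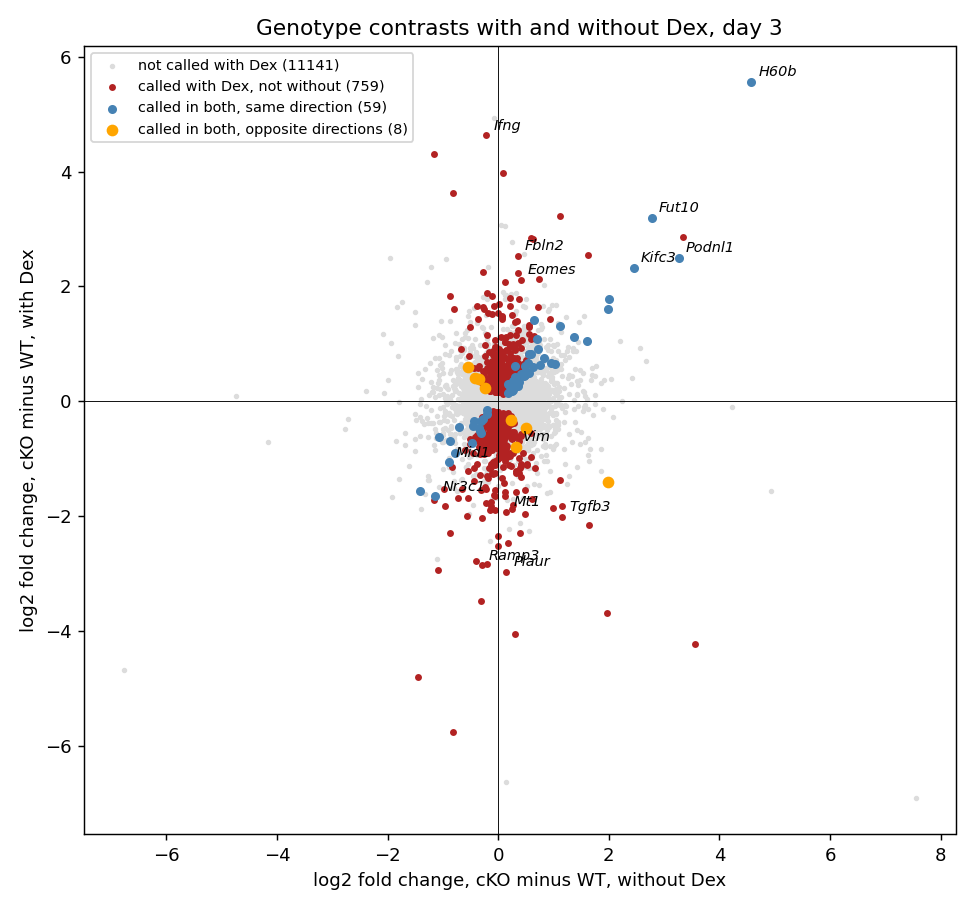
Log2 fold change of cKO minus WT with Dex (vertical) against that without Dex (horizontal), 1 point per gene tested at day 3, coloured by the calls. Most genes called with Dex lie near 0 on the horizontal axis, such as Ifng and Plaur, while the 59 called in both in 1 direction lie along the diagonal; the SE of genes with few counts is large.

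The response of WT cells to Dex at day 9, in libraries outside the day 3 fit, was set beside the genotype contrast. Those cells had been rested and then restimulated, and 6850 of 12320 genes differed with Dex (55.6%), 28.2% higher and 27.4% lower. Of the 390 genes lower in cKO at day 3 that were tested at day 9, 238 (61.0%) were higher with Dex and 58 (14.9%) lower, beside 28.5% and 28.1% of all genes tested on both days. Of the 85 lower by at least 2-fold, 69 (81.2%) were higher with Dex at day 9 and 2 lower. Tsc22d3 (4.43 ± 0.12, adjusted p = 5.9e-12), Plaur (5.33 ± 0.15, adjusted p = 5.9e-12) and Irgc1 (7.40 ± 0.58, adjusted p = 3.2e-07) were among them. Genes higher in cKO were divided, with 142 of 425 (33.4%) higher and 155 (36.5%) lower with Dex at day 9. Ifng (-6.04 ± 0.52, adjusted p = 2.3e-07), Eomes (-2.82 ± 0.48, adjusted p = 1.6e-04), Ly6c2 (-2.92 ± 0.40, adjusted p = 2.0e-05) and Gzmb (-1.36 ± 0.07, adjusted p = 4.7e-09) were lower with Dex there. Genes were not independent of one another in these counts, and no test was made of the shares.

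Genes that differed between the genotypes in both cultures were unevenly spread over the chromosomes, a pattern singled out after the values were seen. Of the 59 genes called with and without Dex in 1 direction, 14 lie on chromosome 8 (23.7%), beside 625 of 11921 genes tested that have a chromosome in RefSeq (5.24%). Of the 758 genes called with Dex only, 42 lie there (5.54%), and of the 215 called without Dex only, 26 do (12.1%). The share on chromosome 8 ranged from 12.6% to 31.0% over the alternatives, in which 23 to 135 genes were called in both cultures. In chromosome order, with the log2 difference with Dex and then without, they are Fut10 (3.20 and 2.78), Mtmr7 (-1.56 and -1.41), Zfp868 (0.63 and 0.76), Slc25a42 (0.75 and 0.83), 2810428I15Rik (0.47 and 0.48), Ocel1 (0.65 and 1.04), Bst2 (-0.34 and -0.43), Hsh2d (-0.62 and -1.08), Podnl1 (2.50 and 3.26), Gadd45gip1 (-0.31 and -0.28), Junb (-0.15 and -0.20), Snx20 (1.60 and 1.98), Kifc3 (2.33 and 2.45) and Mvd (0.36 and 0.32). The densest run of at least 6 of them was picked from all such runs on the chromosome. It spans 84 neighbouring tested genes from Zfp868 to Hsh2d and holds 6 of the 14 (7.14% of the run). Over the whole chromosome they are 14 of 625 tested genes. Hsh2d lies at the threshold with Dex. They encode unrelated products, among them a fucosyltransferase (Fut10), a mitochondrial carrier (Slc25a42), tetherin (Bst2), a kinesin (Kifc3) and a sterol enzyme (Mvd). No cause was tested.

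**Figure D4:**
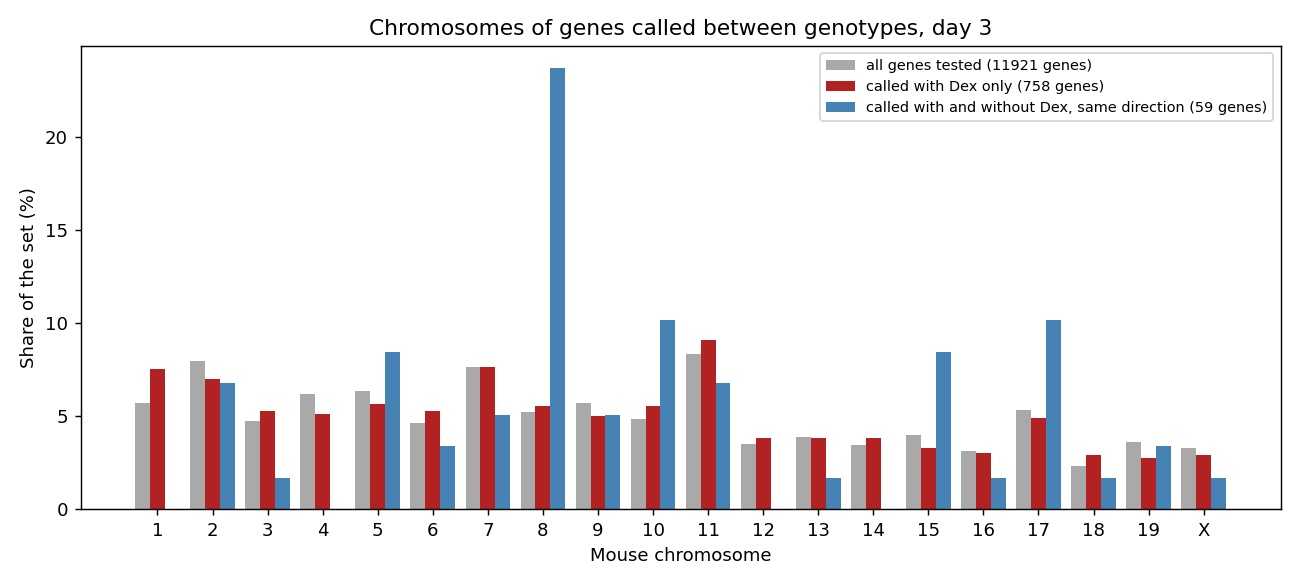
Percent of each set of genes that lies on each mouse chromosome, for all genes tested (grey), genes called with Dex only (red) and genes called with and without Dex in 1 direction (blue). Chromosome 8 holds 23.7% of the last set and 5.24% of all genes tested.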

How the data were processed

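RNA was measured in 24 libraries, and the 12 of day 3 entered the main fit. The authors deposited expected counts per gene from RSEM, with no normalization. They also deposited FPKM values of the same genes, which per the file name were scaled by TMM. The submitters' processing notes name TopHat, RSEM, DESeq and the mm9 build, with no version or role. Reads were 38 nt pairs amplified over 11 cycles without molecular identifiers, per the labels.

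Expected counts were rounded to whole numbers, and edgeR 4.0.16 in R 4.3.3 was used for the main test (quasi-likelihood, two-sided, TMM, prior count 0.125, filterByExpr at 10 counts and a total of 15), with 1 mean per group. SE is the size of the log2 fold change over the square root of F. The day 9 libraries were fitted apart. The test was checked on simulated data. Alternatives were DESeq2 size factors or library totals only, no filter, DESeq2 1.42.0, limma 3.58.1 on log2(FPKM + 1) where a group averaged 1 FPKM or more, a pseudocount of 0.1, no FPKM filter, limma-voom, other sets of libraries, no Rn45s, and each library left out in turn. A leave-one-out fit pools the spread over groups.

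Gene lists (28, and 7 of cell type markers; 847 members, of which 845 were in the table, 4 under an older symbol) and the naming rule were chosen with earlier results of these data known. The rule named fixed genes, up to 6 called members per list in order of p, and the 15 largest differences in each direction among called genes that reached 10 CPM on average in either group and did not overlap. It also named 8 genes each called in both cultures in the same or in opposite directions, the 8 called genes at each end of the test of the difference between cultures, and the 6 most abundant called genes in each direction. Other list members are named as examples of their list, and a few genes the rule named are not reported here. Promoter windows came from RefSeq tables (GRCm38.p6) by symbol. Matplotlib 3.10.9 in Python 3.11.15 drew the figures.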

Additional observations from a re-analysis of the deposited data

Results flagged for a closer look

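The genotype contrast differed between cultures with and without Dex for 353 genes, by the test of the difference itself (the log2 difference with Dex minus that without). This difference was negative, so that the cKO level relative to WT was lower with Dex, for Vim (-1.11 ± 0.09, adjusted p = 1.0e-06), Csgalnact1 (-3.39 ± 0.54, adjusted p = 0.00149), Socs1 (-0.97 ± 0.17, adjusted p = 0.00265), Gimap3 (-0.56 ± 0.08, adjusted p = 6.8e-04), Gm17384 (-4.34 ± 0.92, adjusted p = 0.0123), Coch (-3.80 ± 0.95, adjusted p = 0.0345) and Tgfb3 (-3.17 ± 0.40, adjusted p = 1.7e-04). It was positive for Trib3 (0.73 ± 0.11, adjusted p = 5.6e-04), Slc7a3 (0.83 ± 0.13, adjusted p = 0.00124), Lcp2 (0.47 ± 0.08, adjusted p = 0.00315), Dgat2 (1.15 ± 0.20, adjusted p = 0.00267), Sema6d (5.47 ± 0.92, adjusted p = 0.00221), Ifng (4.84 ± 0.36, adjusted p = 3.8e-07), Spp1 (3.88 ± 0.85, adjusted p = 0.0164), Gm10409 (2.71 ± 0.63, adjusted p = 0.0242) and Ptpn5 (2.41 ± 0.38, adjusted p = 0.00124). Vim, Csgalnact1, Socs1, Gimap3, Trib3, Slc7a3, Lcp2 and Dgat2 were called in opposite directions in the cultures, and the rest were among the called genes with the most extreme differences.

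Several of these rest on few reads. Over the 3 WT Dex and the 3 cKO Dex libraries, Gm17384 had 267 and 17 counts, Coch had 191 and 46 counts, Sema6d had 5 and 115 counts, Spp1 had 7 and 123 counts, Gm10409 had 16 and 63 counts and Ptpn5 had 64 and 213 counts. Over the WT Ctrl and the cKO Ctrl libraries they had, in the same order, 12 and 15, 23 and 74, 148 and 67, 145 and 153, 97 and 53 and 308 and 180 counts.

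Under the alternatives the difference was not called at adjusted p of 0.144 without cKO Ctrl replicate 4 for Gm17384; 0.103 with unfiltered FPKM in limma, 0.0514 with all 24 libraries in 1 fit, 0.103 and 0.0570 without WT Ctrl replicates 2 and 3, 0.0759 and 0.0936 without WT Dex replicates 1 and 2, 0.0536 and 0.101 without cKO Ctrl replicates 4 and 5, and 0.0683 without cKO Dex replicate 5 for Coch; 0.0821 with all 24 libraries in 1 fit for Slc7a3; 0.148 with unfiltered FPKM in limma for Sema6d; 0.150 with FPKM in limma, 0.341 with unfiltered FPKM in limma, 0.0866 with all 24 libraries in 1 fit, 0.0527 without WT Ctrl replicate 2, and 0.0706 and 0.0505 without WT Dex replicates 1 and 3 for Spp1; 0.102 with all 24 libraries in 1 fit, 0.0701 and 0.0639 without WT Ctrl replicates 1 and 2, 0.0737 and 0.0871 without WT Dex replicates 2 and 3, 0.0561 and 0.0552 without cKO Ctrl replicates 4 and 6, and 0.0605 without cKO Dex replicate 6 for Gm10409. The other 10 genes named here kept the call.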

How the results depend on the processing

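Between 484 and 1186 genes differed with Dex when 1 library was left out, 230 to 574 of them higher and 254 to 612 lower, and the largest count was without cKO Dex replicate 6. The other alternatives gave 578 to 1124 genes, and 155 at a call and at least 2-fold. Depending on the alternative, 56.4% to 99.4% of the 826 calls remained. Of 161 called named genes 111 kept call and direction in every alternative run, 50 lost the call in at least 1 and 0 reversed. Without Dex the count was 793 with no low-count filter, 533 in DESeq2, 101 with unfiltered FPKM and 129 with all 24 libraries fitted. It was 63 to 364 with 1 Ctrl library left out. With 1 Dex library left out it was 195 to 513, the largest without cKO Dex replicate 6. For the difference between cultures the counts under the first 4 of these settings were 765, 556, 185 and 213. With 1 library of either culture left out they were 224 to 479. The count of 6850 at day 9 stayed between 6115 and 6886. No scaling moved the median of all genes by over 0.1. The cause of these shifts was not tested. Replicate numbers are 1 to 3 in WT and 4 to 6 in cKO, so a fixed replicate block could not be fitted for the genotype contrasts. With the number as a random replicate block in limma-voom 822 genes were called with Dex (817 in limma-voom without it) and 317 without Dex. With a fixed replicate block the difference between cultures passed for 526 genes (251 higher) and the day 9 contrast for 6752. Same-numbered Ctrl and Dex libraries did not deviate together in WT (r = -0.01, -0.02 and 0.01) and did weakly in cKO (0.10, 0.04 and 0.18), where each Ctrl library correlated best with the Dex library of its number but Dex replicate 5 correlated best with Ctrl replicate 4 (0.06). In cKO, replicate 6 was the most distant library of its group in both cultures. These values do not settle whether the numbers pair the samples, and the main fit did not pair them.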

Other observations

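Of the 59 genes called between the genotypes in both cultures in 1 direction, 5 belong to the Q region of the major histocompatibility complex, a group singled out after the values were seen. H2-Q4 (0.47 ± 0.08 with and 0.40 ± 0.08 without Dex), H2-Q5 (0.62 ± 0.11 and 0.48 ± 0.11), H2-Q7 (0.91 ± 0.09 and 0.72 ± 0.09), H2-Q8 (1.08 ± 0.14 and 0.70 ± 0.14) and H2-Q9 (0.61 ± 0.05 and 0.62 ± 0.05) were all higher in cKO cells. These class I genes are near-identical copies, so reads may be shared among them and their counts are uncertain. H60b, which encodes a ligand of the receptor NKG2D, had 0, 0 and 0.191 CPM in the WT libraries and 4.51, 3.30 and 2.38 CPM in the cKO libraries with Dex, and was called higher in both cultures. No fold is given for it because the WT libraries held almost no reads of it.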
